A study of Homo sapiens with 20 samples.

Results

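The glutathione, thioredoxin and NRF2 antioxidant genes are 40 named genes of the 18305 with an RNA value in this series. Chosen with earlier results of these data known, they were listed by name for their known function. They hold the regulators NFE2L2 (which encodes NRF2) and KEAP1, 5 genes of glutathione supply, 5 glutathione peroxidases, 9 soluble and 3 membrane glutathione transferases, 6 peroxiredoxins with sulfiredoxin, 4 thioredoxin system genes, 3 genes for superoxide dismutases and catalase, and the NRF2-induced enzymes NQO1 and HMOX1. RNA was measured in ARH-77, a B-lymphoblastoid line, and in 3 lines from multiple myeloma (AMO1, L363 and RPMI-8226). Wild-type (WT) cells of each line were set beside cells evolved in culture to resist the proteasome inhibitor bortezomib (BtzR) or, for AMO1 and L363, carfilzomib (CfzR), and resistant cells were kept in 90 nM of their drug. There were 2 biological replicates in each of the 10 groups, so 20 libraries. Each resistant group is 1 evolved line per parent and was grown in drug, so stable resistance and drug exposure cannot be told apart.

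Glutathione and thioredoxin are the main thiol reductants of the cell. Glutathione is made from cysteine by glutamate-cysteine ligase and glutathione synthetase, and it supplies the peroxidases that remove hydrogen and lipid peroxides and the transferases that conjugate electrophiles. Thioredoxin, kept reduced by thioredoxin reductase, supplies the peroxiredoxins. KEAP1 holds NRF2 for ubiquitination and degradation by the proteasome under resting conditions, and NRF2 that escapes binds antioxidant response elements and induces many of these genes. Plasma cells and myeloma cells make large amounts of disulfide-bonded protein and depend strongly on proteasome activity.

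The promoter sequences below belong to 4 genes that were at or near 0 FPKM in some groups and high in others (GSTP1, GPX1, GPX7 and GSTO1), and to GCLM, whose level fell in ARH-77 BtzR cells. FPKM are fragments per kilobase of transcript, scaled to the mapped fragments of the library, a measure on which levels of different genes can be compared. Each run is the 250 bases before the annotated start, 5′ to 3′ in the direction of the gene, from RefSeq on GRCh38.p14. Capitals mark matches to the antioxidant response element core TGACNNNGC on either strand.
GSTP1, chr11:67583562-67583811, + strand: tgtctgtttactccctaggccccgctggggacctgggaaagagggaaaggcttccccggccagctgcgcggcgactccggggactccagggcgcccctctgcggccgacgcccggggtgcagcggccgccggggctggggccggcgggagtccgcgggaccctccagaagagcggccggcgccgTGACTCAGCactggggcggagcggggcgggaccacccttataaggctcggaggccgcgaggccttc
GPX1, chr3:49358354-49358603, - strand: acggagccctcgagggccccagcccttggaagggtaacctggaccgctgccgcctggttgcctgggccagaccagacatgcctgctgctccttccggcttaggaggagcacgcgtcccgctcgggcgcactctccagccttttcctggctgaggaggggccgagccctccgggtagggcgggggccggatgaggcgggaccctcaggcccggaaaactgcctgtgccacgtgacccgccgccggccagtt
GPX7, chr1:52602121-52602370, + strand: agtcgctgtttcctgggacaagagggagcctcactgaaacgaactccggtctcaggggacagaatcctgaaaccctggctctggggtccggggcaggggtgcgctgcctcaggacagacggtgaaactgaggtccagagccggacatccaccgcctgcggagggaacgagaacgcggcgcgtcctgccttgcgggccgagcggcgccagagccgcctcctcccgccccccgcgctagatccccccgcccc
GSTO1, chr10:104254642-104254891, + strand: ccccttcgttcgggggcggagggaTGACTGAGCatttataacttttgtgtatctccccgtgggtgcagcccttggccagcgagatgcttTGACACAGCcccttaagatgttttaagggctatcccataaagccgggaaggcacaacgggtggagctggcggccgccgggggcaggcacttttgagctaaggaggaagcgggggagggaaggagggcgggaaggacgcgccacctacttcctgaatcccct
GCLM, chr1:93909431-93909680, - strand: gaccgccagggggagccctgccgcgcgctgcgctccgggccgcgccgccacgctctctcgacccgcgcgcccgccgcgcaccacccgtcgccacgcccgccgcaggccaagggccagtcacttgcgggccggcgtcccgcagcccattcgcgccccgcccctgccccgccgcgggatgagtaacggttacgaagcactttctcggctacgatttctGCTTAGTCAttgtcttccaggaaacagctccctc

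GSTP1 held 1 match, starting 66 bases before the start, GSTO1 held 2, at 226 and 161 bases, and GCLM held 1 on the other strand, at 34 bases. No match to these letters was present in the windows printed for GPX1 and GPX7. A window was found for 31 of the 40 members, with 44 windows in all because some genes have several starts. The core was present in 8 of these windows (18.2%), which belong to 7 members, and in 10.9% of the 35116 windows of all genes. Member windows held a median of 21.5 CG pairs, against 11 over all windows. A match is a run of letters and not a measured binding site. No window was found for TXN2, PRDX1, MGST2, SOD1, HMOX1, GSR, SLC7A11, GSS and PRDX6, so they were not searched for the core.

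Replicates of a group correlated across genes at r of 0.986 to 0.998 on the log2(FPKM + 1) scale. The libraries labelled AMO1 CfzR correlated at 0.986 to 0.992 with the 6 L363 libraries and at 0.878 to 0.883 with the other 4 AMO1 libraries. They are therefore called the libraries labelled AMO1 CfzR, were compared with both AMO1 WT and L363 WT, and are kept apart from the other results. The summed level of 7 plasma cell markers was 852 to 4080 FPKM in the myeloma lines and 278 to 322 in ARH-77, and that of 6 B cell markers was 504 to 738 in ARH-77 and at most 54.3 elsewhere. Single markers did not all divide the lines this way. PRDM1 was at most 1.67 FPKM in ARH-77 and MS4A1 at least 57.7 there, but IRF4 was higher in ARH-77 (87.2 to 109 FPKM) than in RPMI-8226 WT (60.7 and 66.1), and CD79B was higher in AMO1 WT (51.3 and 52.5) than in ARH-77 (32.3 to 40.4). The sum of 3 T cell markers was 0.04 to 12.1 FPKM, highest in AMO1 WT, where CD3E was at 6.73 and 10.7 against 0.73 and 1.07 in AMO1 BtzR, and CD3D was listed at 0 in 18 of the 20 libraries. The sum of 3 monocyte markers was 3.13 to 8.39 FPKM, mostly LYZ (2.84 to 8.22), with CD14 at most 0.32. In bulk RNA, fewer cells that express a gene and less RNA per cell cannot be told apart.

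The 40 members together accounted for 2835 to 3732 FPKM per library, or 0.6% to 0.765% of the FPKM of all listed genes. Most of this came from 10 members that averaged at least 100 FPKM, namely PRDX1 to PRDX5, thioredoxin TXN, the cytosolic superoxide dismutase SOD1, the lipid peroxide-reducing GPX4, and the transferases GSTP1 and MGST1. PRDX1 was the highest value of any member, at 776 FPKM in an RPMI-8226 WT library, and TXN lay between 316 and 556 FPKM in every library. In all 20 libraries 28 members reached 1 FPKM. The secreted peroxidase GPX3 and the endoplasmic reticulum peroxidase GPX8 stayed under 1 FPKM in every library (at most 0.74 and 0.62), so they were not tested, and 38 members passed the filter of a group mean of at least 1 FPKM.

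**Figure D1:**
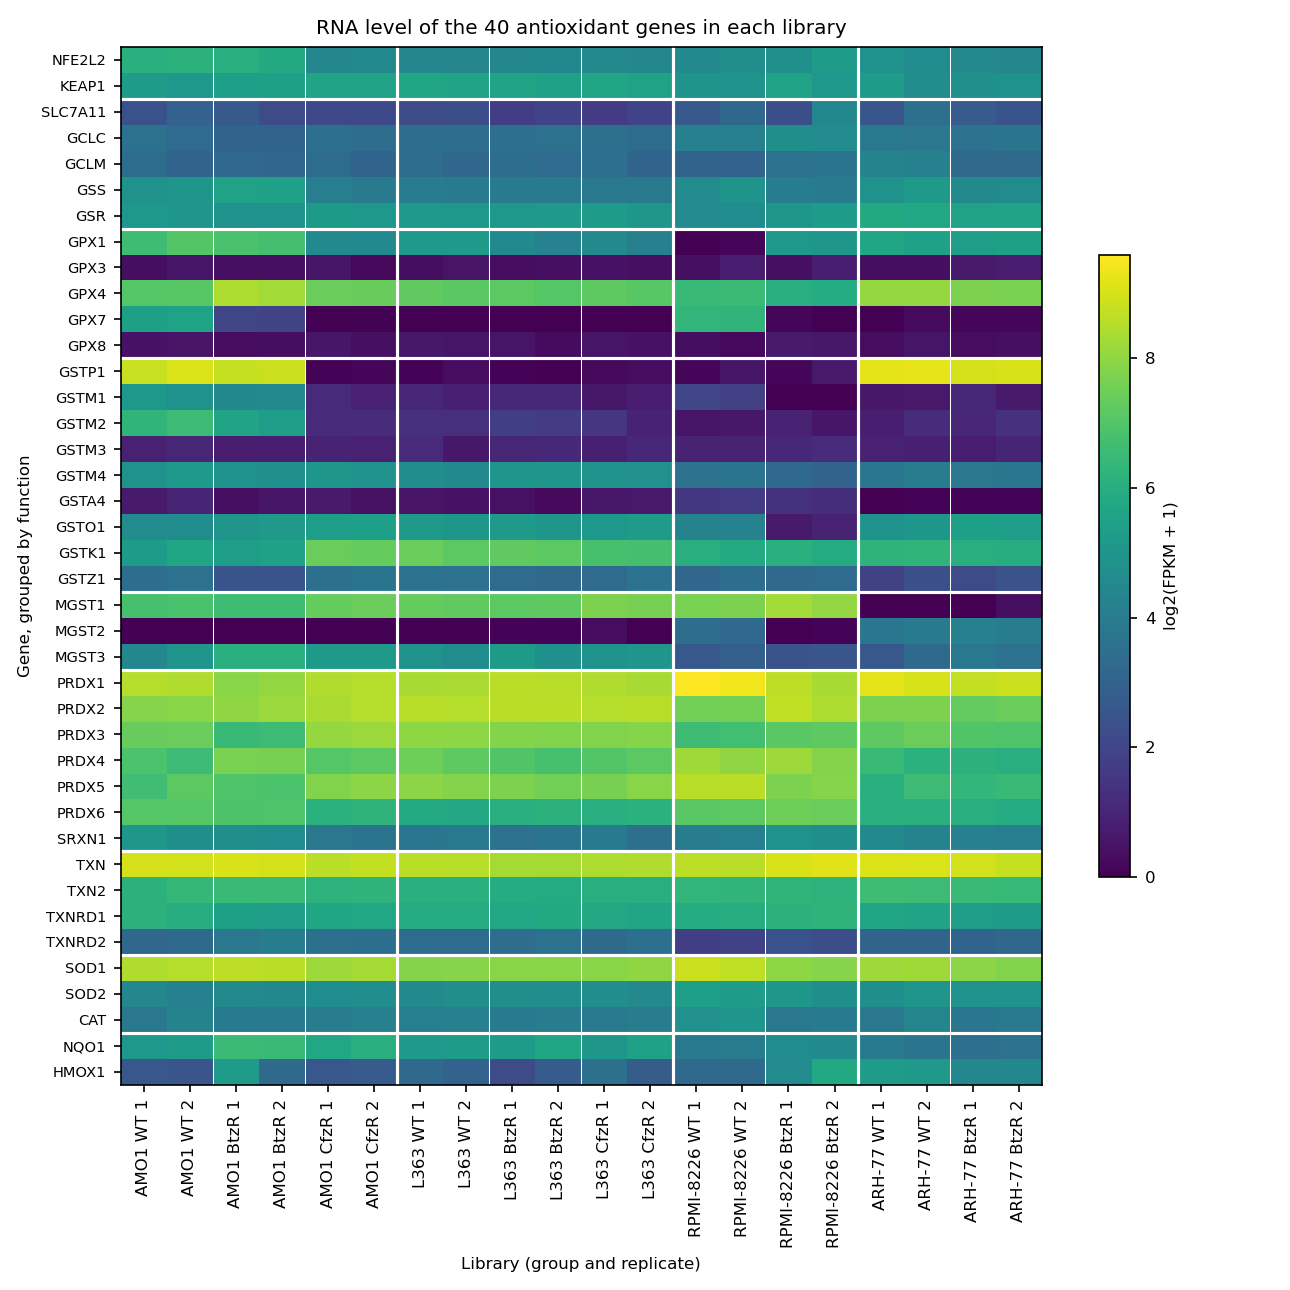
Heatmap of log2(FPKM + 1) for the 40 members (rows, grouped by function) in each of the 20 libraries (columns, by group and replicate). TXN, PRDX1 and SOD1 were high in all libraries, while GSTP1, MGST1, GPX1 and GPX7 were near 0 in some lines and high in others, and the libraries labelled AMO1 CfzR were low, like the L363 columns, for GSTP1, GSTM1, GSTM2 and GPX7.

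Between the WT cells of the 4 lines, 27 of the 38 tested members (71.1%) differed by limma's moderated F test with Benjamini-Hochberg adjustment and a range of group means of at least 1 on the log2 scale, against 52.2% of all 13089 tested genes. By the adjusted p alone, 36 of the 38 differed. GSTM3, at 0.52 to 1.34 FPKM in any library, and the cystine transporter SLC7A11 did not pass (adjusted p = 0.893 and 0.433). The largest ranges in log2(FPKM + 1) were those of GSTP1 (9.02), MGST1 (7.70), GPX1 (6.75) and GPX7 (6.30).

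GSTP1, the pi-class transferase, was at 448 and 533 FPKM in AMO1 WT and at 584 and 606 in ARH-77 WT. The same gene was at 0.06 and 0.24 FPKM in L363 WT and at 0.11 and 0.45 in RPMI-8226 WT. Its level did not move past the test with bortezomib resistance in any line, whether it was high (429 and 452 FPKM in AMO1 BtzR, 503 and 512 in ARH-77 BtzR) or low (0.06 and 0.00 in L363 BtzR, 0.12 and 0.57 in RPMI-8226 BtzR). The intervals of the log2-fold change were -0.47 to 0.17 in AMO1 BtzR and -0.55 to 0.09 in ARH-77 BtzR. The interaction of line and resistance also missed the threshold for GSTP1 (adjusted p = 0.594).

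MGST1, a microsomal transferase with peroxidase activity, showed a different split. It was at 111 and 113 FPKM in AMO1 WT, at 161 and 154 in L363 WT and at 205 and 209 in RPMI-8226 WT, and was listed at 0 in both ARH-77 WT libraries. Its relative MGST2 was near 0 in AMO1 and L363 WT (listed at 0 in all 4 libraries) but at 10.1 and 8.78 FPKM in RPMI-8226 WT and at 12.5 and 14.0 in ARH-77 WT. RPMI-8226 WT was thus the parental line that had both genes.

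The mu-class transferases GSTM1 and GSTM2 were high in AMO1 WT, at 33.4 and 29.9 FPKM and at 76.4 and 94.7 FPKM. Neither exceeded 3.07 FPKM in any L363, RPMI-8226 or ARH-77 library. Their relative GSTM4 was at 7.29 FPKM or more in every library. These genes are close relatives in sequence, so that reads may have been divided between them, and their separate levels are uncertain.

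GPX1, the cytosolic selenium-dependent peroxidase, and GPX7, a peroxidase of the endoplasmic reticulum, took opposite positions in 3 of the 4 WT lines. In RPMI-8226 WT, GPX1 was listed at 0.00 and 0.11 FPKM and GPX7 at 79.3 and 76.2. In L363 WT, GPX1 was at 35.8 and 34.6 FPKM and GPX7 was listed at 0 in both libraries. AMO1 WT had both genes (98.6 and 129 FPKM of GPX1, 43.5 and 46.6 of GPX7), and ARH-77 WT had GPX1 (48.4 and 44.6) with GPX7 at 0.00 and 0.22.

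**Figure D2:**
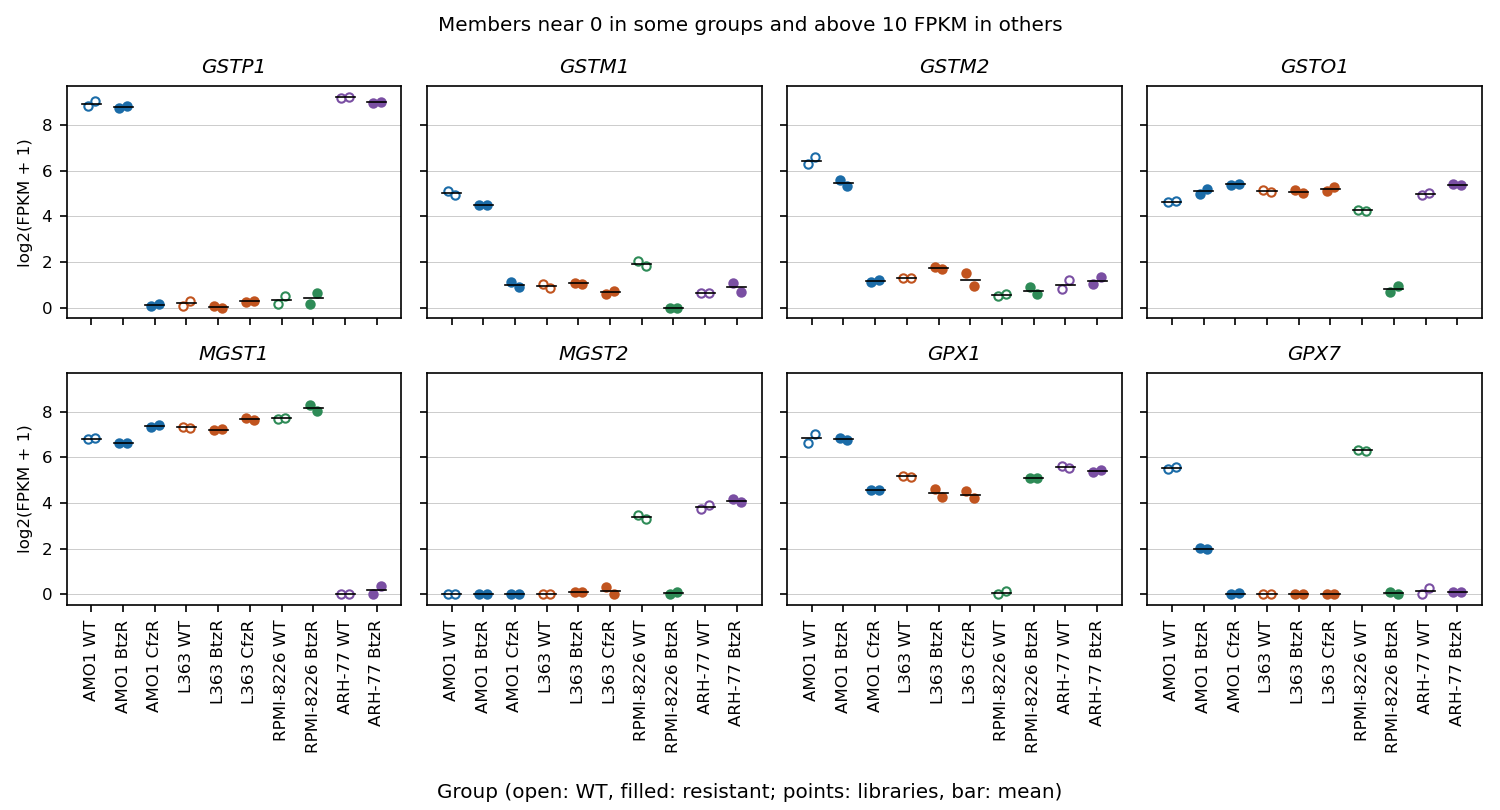
log2(FPKM + 1) of the 8 members that were under 1 FPKM in at least 1 group mean and at 10 FPKM or more in another; points are libraries, open for WT and filled for resistant cells, and bars are means of 2. MGST1 was near 0 in ARH-77 alone, GPX1, GPX7, GSTO1 and MGST2 crossed between near 0 and high in RPMI-8226 BtzR cells, and GSTP1 was high in ARH-77 and in AMO1 apart from the libraries labelled AMO1 CfzR, where it was 0.06 and 0.11 FPKM.

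Resistant cells were then compared with the WT cells of their line, with limma on log2(FPKM + 1) over all libraries and a call where the adjusted p was under 0.05 and the log2-fold change was 1 or more in size. In RPMI-8226 BtzR cells, 8 of the 38 members were called (21.1%, against 13.8% of all tested genes), 2 higher (5.91% of all genes) and 6 lower (7.92%). In AMO1 BtzR cells, 6 were called (15.8%, against 9.18%), 4 higher (4.61% of all genes) and 2 lower (4.57%). No member was called in L363 BtzR (against 2.06% of all genes), L363 CfzR (1.93%) or ARH-77 BtzR cells (1.6%). In these comparisons 8, 7 and 17 members had an unadjusted p under 0.05 in limma. The 2 L363 comparisons share their WT libraries. The summed level of plasma cell markers was also lower in both lines with called members. It went from 4080 and 3760 to 2150 and 2380 FPKM in AMO1 BtzR. In RPMI-8226 BtzR it went from 1230 and 1190 to 914 and 852. Without a called member, it was also lower in ARH-77 BtzR (292 and 278 against 312 and 322) and L363 CfzR (2020 and 2020 against 2360 and 2060). In AMO1 most of the fall was SDC1 (3266 and 2883 to 1276 and 1356), and CD38 and IRF4 were lower. PRDM1 (22.5 and 30.2 to 36.9 and 38.8) and MZB1 (489 and 489 to 573 and 684) were higher there, and TNFRSF17 and XBP1 overlapped. In RPMI-8226, TNFRSF17 went from 94.0 and 98.1 to 7.86 and 4.93 FPKM and CD38 from 45.6 and 56.7 to 2.43 and 3.02. MZB1 was also lower there and SDC1 overlapped. IRF4 (60.7 and 66.1 to 84.1 and 116), XBP1 (246 and 248 to 341 and 327) and PRDM1 (11.3 and 12.7 to 21.4 and 15.9) were higher. The part of these marker differences in the members' changes was not tested.

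With the adjusted p alone, 29 members passed in RPMI-8226 BtzR (76.3%, against 54.3% of all genes), 16 of them higher (30.2% of all genes were) and 13 lower (24.2%). In AMO1 BtzR 18 passed (47.4% against 51.2%), 9 higher (25.6%) and 9 lower (25.6%). In ARH-77 BtzR 10 passed (26.3% against 13.6%), 2 higher (5.98%) and 8 lower (7.6%). For L363 BtzR the count was 4 (10.5% against 11.2%), 2 higher (5.66%) and 2 lower (5.52%), and for L363 CfzR it was also 4 (10.5% against 8.47%), 2 higher (4.88%) and 2 lower (3.58%). The shares in AMO1 and L363 were near those of all genes. The median log2-fold change of the members was 0.13 in RPMI-8226 BtzR (0.05 over all tested genes), -0.08 in AMO1 BtzR (-0.00), -0.19 in ARH-77 BtzR (-0.04), -0.01 in L363 CfzR (-0.00) and -0.04 in L363 BtzR (0.00).

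Across the 4 BtzR comparisons, no member passed limma's adjusted p in all 4, as 0.764% of all tested genes did. Of the 38 members, 11 passed upward in at least 1 line and downward in another (18.4% of all genes did), and 4 (GSTP1, GSTK1, GSTM3 and SLC7A11) passed in none (19.6% of all genes). The 1 member that passed in the same direction in at least 3 lines (4.01% of all genes did) was PRDX1, which was lower in RPMI-8226, AMO1 and ARH-77. In L363 BtzR its estimate had the other sign and did not pass (0.22, interval -0.01 to 0.45). The effect of resistance differed between the 4 lines for 32 of the 38 members (84.2%, against 71.1% of all genes) by limma's F test of the interaction.

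**Figure D3:**
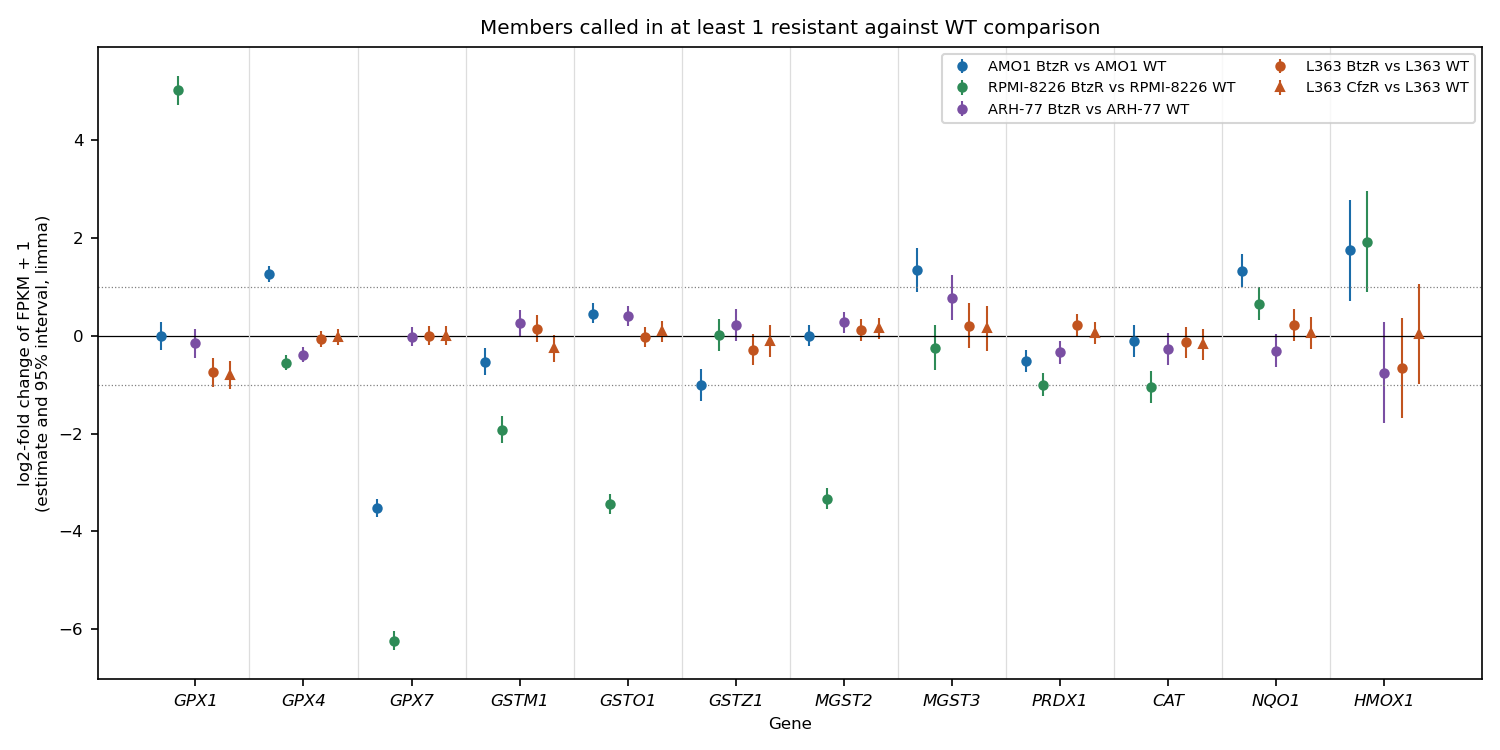
log2-fold change of FPKM + 1 with its 95% interval, from limma, for the 12 members called in at least 1 of the 5 comparisons of resistant with WT cells; colours and symbols mark the comparison and dotted lines the call threshold of 1. GPX1 rose by 5.02 and GPX7 fell by 6.24 in RPMI-8226 BtzR, and the L363 estimates all lay within 1 of 0.

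The regulators moved little. NFE2L2 was highest in AMO1 (67.4 and 71.9 FPKM in WT, 63.6 and 56.5 in BtzR) and lay between 19.7 and 37.7 FPKM in the other lines. It rose in RPMI-8226 BtzR by 0.39 (SE 0.13, adjusted p = 0.0175), from 22.7 and 26.0 to 27.3 and 37.7 FPKM. KEAP1 rose there by 0.41 (SE 0.16, adjusted p = 0.0393), from 30.2 and 28.4 to 45.8 and 33.7 FPKM. In both cases the 2 resistant libraries lay above the 2 WT libraries but differed from each other by more than the WT libraries did. In the other BtzR lines the estimates ran from -0.29 to 0.03 for NFE2L2 and from -0.10 to 0.22 for KEAP1, and none passed.

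Of the 5 genes of glutathione supply, 3 rose in RPMI-8226 BtzR (GCLC, GCLM and GSR) and 1 fell (GSS), and 2 fell in ARH-77 BtzR (GCLM and GSS). Of all genes, 30.2% passed upward and 24.2% downward in RPMI-8226 BtzR and 7.6% downward in ARH-77 BtzR, and the list's median was 0.52 in the former (0.05 over all genes) and -0.41 in the latter (-0.04). GCLC and GCLM encode the catalytic and modifier subunits of glutamate-cysteine ligase, the rate-limiting enzyme of glutathione synthesis. GCLC rose from 17.1 and 17.3 to 26.5 and 24.1 FPKM in RPMI-8226 BtzR, by 0.53 on the log2 scale (SE 0.09, adjusted p = 0.000116), and GCLM rose from 7.44 and 7.07 to 11.4 and 12.1, by 0.63 (SE 0.14, adjusted p = 0.00193). Glutathione reductase (GSR) rose there by 0.52 (SE 0.09), while glutathione synthetase (GSS) fell by 0.79 (SE 0.12).

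ARH-77 BtzR cells went the other way for GCLM. It was at 18.7 and 17.8 FPKM in ARH-77 WT, the highest level of any group, and at 8.90 and 8.89 in ARH-77 BtzR, a fall by 0.96 (SE 0.14, adjusted p = 0.00034) that lies just inside the threshold of 1. With a pseudocount of 0.1 or 0.01, or after rescaling libraries as TPM, GCLM was called. GSS also fell there, by 0.41 (SE 0.12, adjusted p = 0.028). In AMO1 BtzR, GSS rose from 28.7 and 32.7 to 45.3 and 44.1 FPKM (0.53, SE 0.12) and GCLC fell by 0.38 (SE 0.09). GCLM had an estimate of -0.01 in AMO1 BtzR, with an interval of -0.32 to 0.30.

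SLC7A11, which imports the cystine used for glutathione, was at most 10.5 FPKM outside RPMI-8226 BtzR and varied between replicates. It was at 4.01 and 21.5 FPKM in RPMI-8226 BtzR and at 5.44 and 8.37 in RPMI-8226 WT, so that 1 resistant library lay below both WT libraries and the other above them. The interval of its log2-fold change was -0.60 to 1.5 in RPMI-8226. Its width was similar in each line because the model pools the spread over all groups. On the log2(FPKM + 1) scale, replicates differed by 2.16 in RPMI-8226 BtzR. In L363 they differed by 0.05 in WT, 0.21 in BtzR and 0.20 in CfzR.

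NQO1, a quinone reductase, and HMOX1, the inducible heme oxygenase, rose in AMO1 and RPMI-8226 BtzR cells. NQO1 was at 33.5 and 37.9 FPKM in AMO1 WT and at 92.1 and 90.0 in AMO1 BtzR, 1.33 higher on the log2 scale (SE 0.15, adjusted p = 6.3e-06). In RPMI-8226 it went from 13.6 and 15.5 to 24.4 and 22.4 FPKM (0.65, SE 0.15, adjusted p = 0.00235). The groups did not overlap in either line. In ARH-77 it was at 15.1 and 11.8 FPKM in WT and at 10.4 and 10.9 in BtzR, which did not pass (-0.31, interval -0.64 to 0.03).

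HMOX1 was at 5.16 and 4.75 FPKM in AMO1 WT and at 38.7 and 8.96 in AMO1 BtzR (1.74, SE 0.48, adjusted p = 0.00728). In RPMI-8226 it was at 8.82 and 8.94 in WT and at 23.7 and 55.7 in BtzR (1.92, SE 0.48, adjusted p = 0.00344). In AMO1 and RPMI-8226 all BtzR libraries lay above the WT libraries of their line, but each call rested on 1 library. Without AMO1 BtzR replicate 1 the estimate was 0.74 (adjusted p = 0.141), and without RPMI-8226 BtzR replicate 2 it was 1.32 (adjusted p = 0.0596). A fit of the compared libraries only gave an adjusted p of 0.14 in AMO1. In ARH-77, WT cells had the highest WT level of HMOX1 (37.6 and 34.8 FPKM), and BtzR cells were at 20.5 and 21.5. Both resistant libraries lay below both WT libraries there, but the estimate of -0.76 did not pass (interval -1.78 to 0.27). The model pools the spread over all groups, so the width of this interval does not come from the ARH-77 replicates alone. On the log2(FPKM + 1) scale, HMOX1 replicates differed by 0.11 in ARH-77 WT and 0.06 in ARH-77 BtzR, against 1.99 in AMO1 BtzR.

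**Figure D4:**
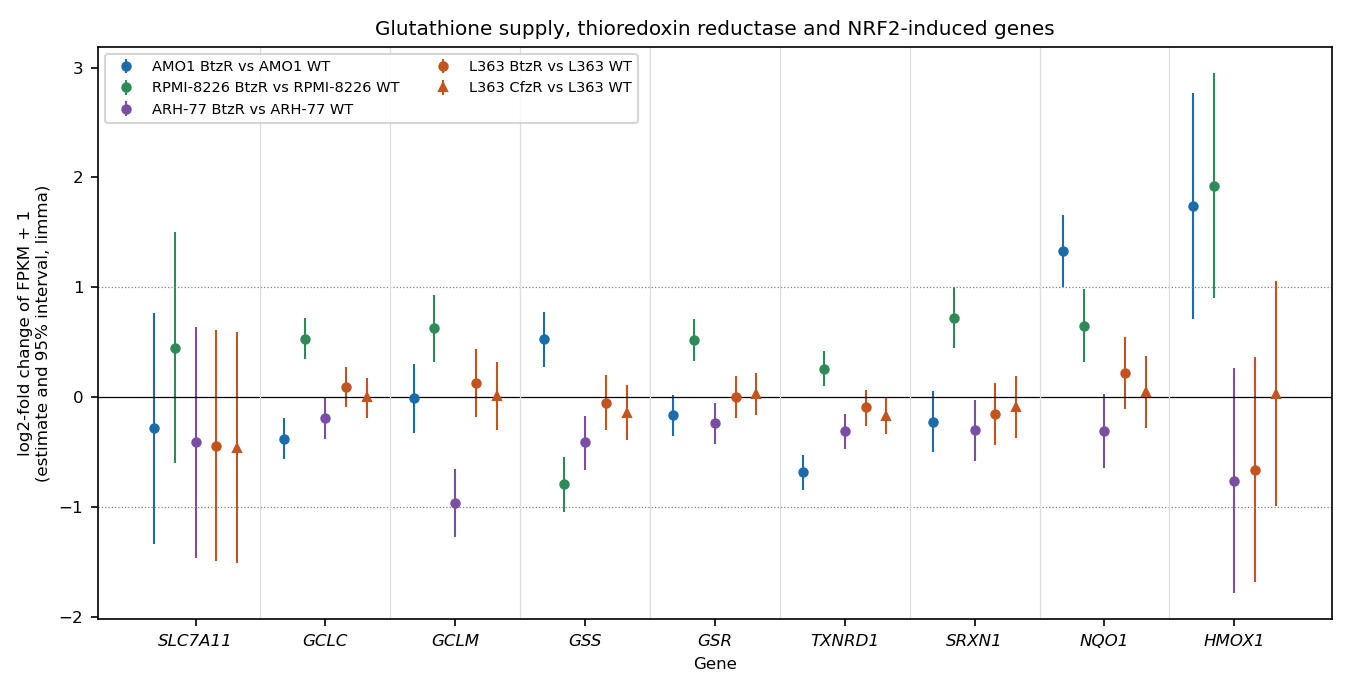
log2-fold change of FPKM + 1 with its 95% interval, from limma, for the 5 genes of glutathione supply and for TXNRD1, SRXN1, NQO1 and HMOX1 in the 5 comparisons; these genes were picked for plotting after their values were seen. They do not stand for the whole set, in which 16 members passed upward and 13 downward in RPMI-8226 BtzR; GCLM was 0.63 in RPMI-8226 BtzR and -0.96 in ARH-77 BtzR, and the intervals of HMOX1 and SLC7A11 were the widest.

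The glutathione peroxidases held the largest changes. GPX7 went from 79.3 and 76.2 FPKM in RPMI-8226 WT to 0.09 and 0.00 in BtzR, a fall by 6.24 on the log2(FPKM + 1) scale (SE 0.09, adjusted p = 3.0e-16). In AMO1 it went from 43.5 and 46.6 FPKM to 3.07 and 2.95, a fall by 3.52 (SE 0.09, adjusted p = 9.5e-13). Thus both lines with a high parental level of GPX7 were lower when resistant, and it was at most 0.22 FPKM in L363 and ARH-77 libraries.

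GPX1 moved the other way in RPMI-8226, from 0.00 and 0.11 FPKM to 33.6 and 32.6 (5.02, SE 0.14, adjusted p = 3.0e-13). RPMI-8226 WT was the only group with a GPX1 mean under 1 FPKM. Since the WT values are at or near 0, the size of this change depends on the pseudocount, and it was 9.90 with a pseudocount of 0.01. In L363, GPX1 fell from 35.8 and 34.6 FPKM to 23.4 and 17.9 in BtzR (-0.75, SE 0.14, adjusted p = 0.00186) and to 22.2 and 17.4 in CfzR (-0.81, SE 0.14, adjusted p = 0.00111). In AMO1, WT libraries (98.6 and 129) enclosed the BtzR libraries (115 and 109).

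GPX4, which reduces lipid hydroperoxides in membranes, rose from 132 and 139 FPKM in AMO1 WT to 342 and 309 in AMO1 BtzR (1.26, SE 0.07, adjusted p = 5.5e-09). It fell in RPMI-8226 BtzR from 90.9 and 92.2 to 63.8 and 60.4 FPKM (-0.55, SE 0.07, adjusted p = 1.6e-05) and in ARH-77 BtzR from 269.6 and 268 to 209.8 and 202 FPKM (-0.39, SE 0.07, adjusted p = 0.00239). In none of these lines did the groups overlap. The L363 estimates were -0.07 in BtzR and -0.03 in CfzR, with intervals within 0.23 of 0.

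Of the soluble transferases, GSTO1, an omega-class enzyme with thioltransferase activity, fell from 18.5 and 18.1 FPKM in RPMI-8226 WT to 0.63 and 0.92 in BtzR (-3.44, SE 0.10, adjusted p = 4.1e-13). It was at 23.7 FPKM or more in all libraries of the other lines, and rose by 0.45 in AMO1 BtzR and by 0.40 in ARH-77 BtzR (SE 0.10 for both). GSTM1 was at 3.07 and 2.55 FPKM in RPMI-8226 WT and was listed at 0 in both BtzR libraries (-1.93, SE 0.13, adjusted p = 8.8e-09). In AMO1 BtzR, GSTM1 was at 21.3 and 21.9 FPKM and GSTM2 at 47.5 and 39.3, and both had fallen, by 0.53 and by 0.96 (adjusted p = 0.00336 and 0.000628). GSTM4 rose by 0.41 in L363 BtzR (SE 0.11, adjusted p = 0.0314) and fell by 0.46 in RPMI-8226 BtzR (SE 0.11, adjusted p = 0.00323).

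GSTZ1, the zeta-class enzyme of tyrosine breakdown, fell in AMO1 BtzR from 10.0 and 10.9 to 4.66 and 4.70 FPKM (-1.01, SE 0.15, adjusted p = 6.9e-05), close to the threshold of 1. Without AMO1 WT replicate 2 the change was -0.95. GSTK1, a mitochondrial and peroxisomal enzyme, fell in L363 CfzR from 167 and 145 to 111 and 108 FPKM (-0.51, SE 0.11, adjusted p = 0.00817), and its difference between the 4 BtzR lines did not pass (adjusted p = 0.282).

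The membrane transferases differed from each other in the lines and directions of their changes. MGST2 went from 10.1 and 8.78 FPKM in RPMI-8226 WT to 0.00 and 0.08 in BtzR (-3.33, SE 0.10, adjusted p = 1.0e-12). In ARH-77, MGST2 was at 12.5 and 14.0 FPKM in WT and at 17.0 and 15.3 in BtzR. Both resistant libraries lay above both WT libraries there, but the difference did not pass the adjusted p. MGST1 rose in RPMI-8226 BtzR from 205 and 209 to 308 and 263 FPKM (0.46, SE 0.10, adjusted p = 0.00151) and in L363 CfzR from 161 and 154 to 208 and 196 (0.36, SE 0.10, adjusted p = 0.0427). MGST3 rose in AMO1 BtzR from 21.2 and 31.4 to 66.7 and 67.3 FPKM (1.34, SE 0.21, adjusted p = 0.000111) and in ARH-77 BtzR from 5.04 and 8.84 to 13.3 and 11.1 (0.77, SE 0.21, adjusted p = 0.026). Without ARH-77 WT replicate 2, MGST3 was called in ARH-77.

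Most peroxiredoxins reduce hydrogen peroxide with thioredoxin. The cytosolic PRDX1 went from 776 and 679 FPKM in RPMI-8226 WT to 403 and 325 in BtzR (-1.0, SE 0.11, adjusted p = 1.6e-06), from 371 and 351 to 240.1 and 263 in AMO1 (-0.52, SE 0.11) and from 598 and 515 to 422 and 455 in ARH-77 (-0.34, SE 0.11, adjusted p = 0.0494). In each of these lines both resistant libraries lay below both WT libraries. The RPMI-8226 change sits at the threshold and was -0.98 after rescaling as TPM, -0.91 without WT replicate 1 and -0.85 without BtzR replicate 2.

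PRDX2, also cytosolic, rose in RPMI-8226 BtzR from 186 and 193 to 412 and 338 FPKM (0.97, SE 0.09, adjusted p = 3.0e-07), just under the threshold. The mitochondrial PRDX3 rose there by 0.52 (SE 0.07) and fell in AMO1 BtzR by 0.85 (SE 0.07), from 165 and 169 to 90.7 and 93.7 FPKM. The endoplasmic reticulum form PRDX4 rose in AMO1 BtzR from 118 and 94.5 to 204 and 199.9 FPKM (0.93, SE 0.15, adjusted p = 0.000152), and PRDX5 fell in RPMI-8226 BtzR from 378 and 391 to 209 and 229 (-0.81, SE 0.16). In ARH-77 BtzR, 3 of the 7 genes of this list passed, all lower (PRDX1, PRDX2 and PRDX3), where 7.6% of all genes passed downward. PRDX6, which acts with glutathione in place of thioredoxin, rose in L363 BtzR from 58.1 and 54.4 to 66.3 and 70.1 FPKM and in L363 CfzR to 66.2 and 69.6 (0.27, SE 0.07, for both, which share the WT libraries), and in RPMI-8226 BtzR by 0.29 (SE 0.07). SRXN1, which restores overoxidized peroxiredoxins, rose in RPMI-8226 BtzR from 15.9 and 16.7 to 28.8 and 26.5 FPKM (0.72, SE 0.13, adjusted p = 0.000269).

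Thioredoxin reductases also differed in direction. The cytosolic TXNRD1 rose in RPMI-8226 BtzR by 0.26 (SE 0.08), fell in AMO1 BtzR by 0.68 (SE 0.08), from 71.0 and 62.8 to 42.6 and 40.1 FPKM, and fell in ARH-77 BtzR by 0.31 (SE 0.08). The mitochondrial TXNRD2 rose in AMO1 BtzR by 0.66 and in RPMI-8226 BtzR by 0.55 (SE 0.10 for both). TXN rose in RPMI-8226 BtzR from 401 and 393 to 518 and 556 FPKM (0.43, SE 0.07) and fell in L363 BtzR from 394 and 383 to 319 and 316 (-0.29, SE 0.07, adjusted p = 0.0204).

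All 3 genes for superoxide dismutases and catalase fell in RPMI-8226 BtzR, where 24.2% of all genes passed downward (median -0.83, against 0.05 over all genes). Catalase (CAT) went from 28.2 and 32.4 to 13.5 and 14.8 FPKM (-1.05, SE 0.15, adjusted p = 3.6e-05), which brought it to the range of the other lines (12.7 to 19.4). SOD1 went from 449.9 and 406 to 248 and 231 FPKM (-0.83, SE 0.08, adjusted p = 6.3e-07), and the mitochondrial SOD2 fell by 0.41 (SE 0.11, adjusted p = 0.00669). In these genes no RPMI-8226 BtzR library reached the WT level. The CAT change was -0.95 without WT replicate 2 and -0.98 without BtzR replicate 1, just under the threshold. SOD1 also fell in ARH-77 BtzR, by 0.35 (SE 0.08, adjusted p = 0.00883).

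In the libraries labelled AMO1 CfzR, 8 members were called against AMO1 WT (21.1%, against 17.1% of all genes), 1 higher (7.88% of all genes) and 7 lower (9.21%). By the adjusted p alone 23 passed (60.5% against 57.7%), 10 higher (26.8%) and 13 lower (30.9%). GSTP1 was at 0.06 and 0.11 FPKM there, GSTM1 at 1.21 and 0.85, GSTM2 at 1.21 and 1.33, and GPX7 at 0.00 and 0.04. NFE2L2, at 20.6 and 22.3 FPKM, differed from AMO1 WT by -1.66 on the log2 scale (SE 0.13). GSTK1 was at 169.5 and 162 FPKM against 38.7 and 50.4 in AMO1 WT (1.88, SE 0.11). GPX1 was at 22.8 and 22.8 FPKM against 98.6 and 129 in AMO1 WT (-2.26, SE 0.14), and SRXN1 at 13.3 and 11.8 against 33.1 and 26.3 (-1.17, SE 0.13).

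Against L363 WT, no member was called in the same libraries (1.66% of all genes were), and 8 had an unadjusted p under 0.05 in limma. By the adjusted p alone 4 passed (10.5% against 6.92%), 3 higher (3.52%) and 1 lower (3.4%), with NQO1 higher by 0.65 (SE 0.15, adjusted p = 0.0166), SOD1 by 0.41 and PRDX6 by 0.36, and GPX1 lower (-0.60, SE 0.14, adjusted p = 0.0122). NQO1 was at 52.5 and 65.4 FPKM there and at 35.6 and 38.2 in L363 WT. A fit without these libraries gave the same counts of called members in the other 5 comparisons.

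Of 68 further genes of these pathways, 65 had a row and 56 were tested. Of the tested genes, 10 were called in RPMI-8226 BtzR (17.9%), 3 in AMO1 BtzR and 3 in ARH-77 BtzR (5.36% each), and 1 in L363 CfzR (1.79%), against 13.8%, 9.18%, 1.6% and 1.93% of all genes. None was called in L363 BtzR (2.06% of all genes), where 14 had an unadjusted p under 0.05 in limma. In the libraries labelled AMO1 CfzR, 19 were called against AMO1 WT (33.9%, against 17.1% of all genes) and none against L363 WT (1.66%), where 9 had an unadjusted p under 0.05. GSTO2, which lies close to GSTO1 on chromosome 10 in the RefSeq annotation, fell in RPMI-8226 BtzR from 13.8 and 16.9 to 1.52 and 2.25 FPKM (-2.51, SE 0.14) and in AMO1 BtzR from 7.75 and 8.02 to 1.5 and 1.3 (-1.89, SE 0.14). Thus GSTO2 was lower in both lines, whereas GSTO1 was lower in RPMI-8226 and higher in AMO1.

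The other named genes of RPMI-8226 BtzR included MSRA, which repairs oxidized methionine, at 1.49 and 1.69 FPKM in WT and at 10.7 and 6.16 in BtzR (1.82, SE 0.19). NQO2, a relative of NQO1, went from 20.5 and 16.6 to 69.8 and 60.5 FPKM (1.76, SE 0.13). The constitutive heme oxygenase HMOX2 fell from 45.4 and 38.5 to 14.5 and 12.1 FPKM (-1.59, SE 0.14), in the line where HMOX1 rose. The mitochondrial glutaredoxin GLRX5 rose by 1.47 (SE 0.13).

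PIR, an NRF2-induced iron-binding protein, rose in AMO1 BtzR from 11.2 and 10.7 to 31.5 and 31.5 FPKM (1.44, SE 0.15, adjusted p = 2.6e-06) and fell in ARH-77 BtzR from 30.9 and 38.5 to 10.5 and 9.16 (-1.72, SE 0.15, adjusted p = 2.8e-06). In both lines the 2 groups were far apart. The aldo-keto reductases AKR1C1 and AKR1C3 were the other genes called in ARH-77 BtzR, both lower (-1.19, SE 0.13, and -1.35, SE 0.26), from WT levels of 1.47 and 2.36 and of 1.84 and 5.14 FPKM. They are close relatives, so their reads may have been divided. SESN3 rose in AMO1 BtzR by 1.10 (SE 0.20), to 1.79 and 1.11 FPKM, and GGT7, a gamma-glutamyltransferase family member, rose in L363 CfzR from 4.36 and 3.84 to 8.86 and 11.0 FPKM (1.09, SE 0.13).

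Replicates were close for most members. Of the 400 pairs of a member and a group, the median gap between replicates was 0.10 on the log2(FPKM + 1) scale, 14 exceeded 0.5 and 3 exceeded 1. Those 3 were SLC7A11 in RPMI-8226 BtzR (2.16) and HMOX1 in AMO1 BtzR (1.99) and RPMI-8226 BtzR (1.2).

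**Figure D5:**
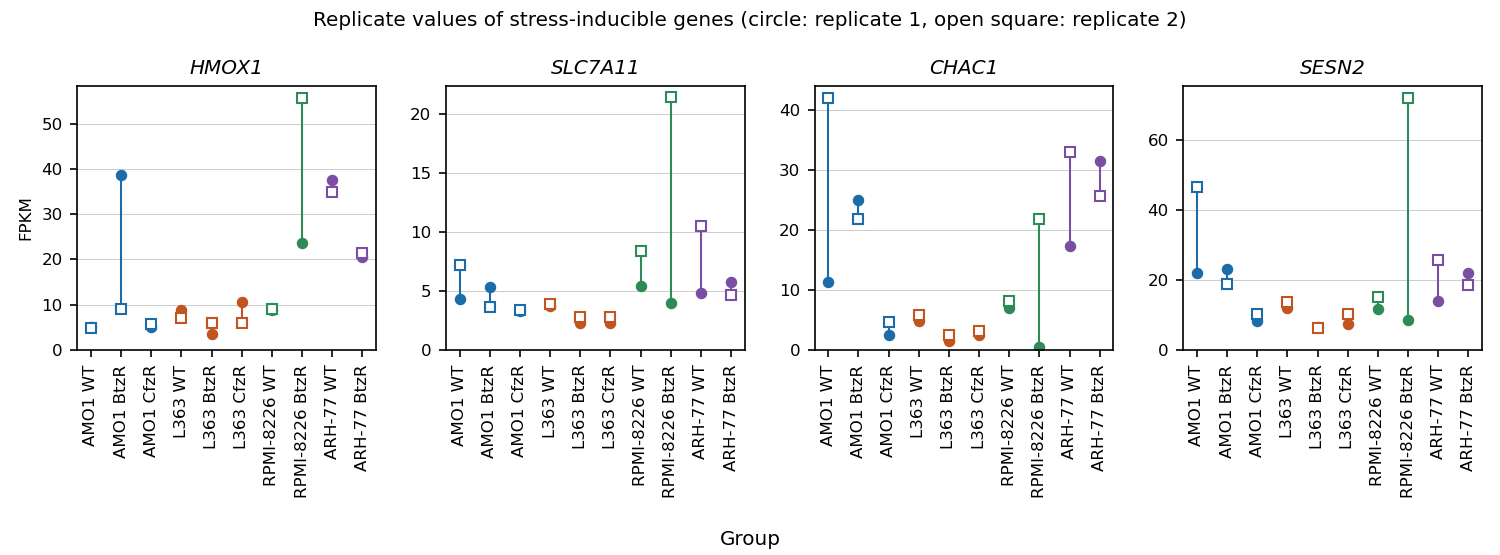
FPKM of HMOX1, SLC7A11, CHAC1 and SESN2 in both replicates of each group (circle for replicate 1, open square for replicate 2, joined by a line); the genes were picked after their values were seen. In RPMI-8226 BtzR replicate 2 was above replicate 1 for all 4 genes, and in AMO1 BtzR HMOX1 was higher in replicate 1.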

How the data were processed

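RNA from 20 libraries of 4 cell lines was analysed, with 2 biological replicates in each of 10 groups; p-values measure the spread between these replicates. The authors deposited FPKM values for 18305 genes, to 2 decimals. BGI extracted the RNA, built the libraries and sequenced them (BGISEQ-500). Per the labels, the submitters' processing notes name HISAT2 2.0.4, Bowtie2 2.2.5 and RSEM 1.2.12, with no role given, and the genome build is not given in the sources used here. No read counts accompany the values, so depth is unknown and no counting interval or floor could be had; zeros are given as listed at 0. Library columns were matched to groups by line, drug and replicate number, and 0 columns were left unmapped.

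FPKM were transformed as log2(FPKM + 1), so changes of low genes are understated. A gene was tested if the mean of any group reached 1 FPKM (13089 genes). limma 3.58.1 in R 4.3.3 fitted a mean for each of the 10 groups with a mean-variance trend (10 residual degrees of freedom), and p-values were adjusted by Benjamini-Hochberg over all tested genes; fold changes carry the model's standard error (SE) and 95% interval. The smallest two-sided exact permutation p with 2 against 2 libraries is 0.33, so that test was not used. The test was tried on simulated data for AMO1 BtzR against AMO1 WT, where 199 of 200 changes set at 2 log2 units were recovered. Of the unchanged genes in that simulation, 1 was called. Changes near the threshold of 1, or in genes low in WT, were not simulated. Python 3.11.15 with pandas 2.3.3 and numpy 2.4.6 made the summaries. Promoter windows are RefSeq's, on GRCh38.p14, and share no coordinates with the deposited table.

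The members and the further pathway and marker lists were chosen with earlier results of these data known. Any member could be named; members called in a comparison with the WT cells of their own line are given with every library of it. Of the further pathway genes, up to 5 with the largest change per comparison were named, among those called with both resistant libraries beyond both WT libraries; CHAC1 and SESN2 were named after their values were seen. Alternatives were other pseudocounts (0.1, 0.01) and filters (none, 5 FPKM), rescaling as TPM, quantile normalization, no mean-variance trend, a block for replicate number, a fit of only those libraries being compared, and omission of single libraries; a fit without the libraries labelled AMO1 CfzR was added after seeing the data.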

Additional observations from a re-analysis of the deposited data

Results flagged for a closer look

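For 12 members called in a resistant line, the effect of bortezomib resistance differed between AMO1, L363, RPMI-8226 and ARH-77 by limma's F test of the interaction. Of all tested genes, 71.1% passed this test. The members were picked by calls on the same fold changes, so the F test gives no separate support for a difference. The range of the log2-fold change over the 4 lines was 6.24 for GPX7 (adjusted p = 4.3e-14), lowest in RPMI-8226, and 5.77 for GPX1 (adjusted p = 1.2e-11), highest in RPMI-8226. It was 3.90 for GSTO1 (adjusted p = 1.4e-11), 3.60 for MGST2 (adjusted p = 5.4e-11) and 2.17 for GSTM1 (adjusted p = 3.4e-07), each lowest in RPMI-8226. It was 1.81 for GPX4 (adjusted p = 5.9e-09), 1.64 for NQO1 (adjusted p = 9.4e-05) and 1.59 for MGST3 (adjusted p = 0.0016), each highest in AMO1. HMOX1 had a range of 2.68 (adjusted p = 0.00255), with the gap between replicates given above. GSTZ1 and PRDX1 had a range of 1.22 each (adjusted p = 0.000782 and 5.7e-05) and CAT of 0.94 (adjusted p = 0.00355). The F test does not say which pair of lines differs. GPX7 and MGST2 were at or near 0 in the WT cells of 2 lines each, where a fall could not be measured. GSTM1 was low in L363 WT (1.03 and 0.81 FPKM) and ARH-77 WT (0.55 and 0.58), which left little room for a fall. No group had 4 or more libraries, so no single library was tested against its group.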

How the results depend on the processing

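The count of called members kept within 1.5 times its value under the alternatives run, apart from ARH-77 BtzR, where the count of 0 became 1 with a pseudocount of 0.1, with 0.01 and as TPM (GCLM, lower each time), and ranged from 0 to 1 when single libraries were left out (MGST3, higher, without ARH-77 WT replicate 2). Of 300 alternative values for 22 called changes, 291 stayed past the threshold in the same direction, 0 reversed and 9 lost the call, in GSTZ1 and HMOX1 in AMO1 BtzR and PRDX1, CAT and HMOX1 in RPMI-8226 BtzR. With a pseudocount of 0.01 the largest changes grew, to -11.26 for GPX7, -8.30 for MGST2 and -8.13 for GSTM1 in RPMI-8226 BtzR. Counts by the adjusted p alone were less stable: leaving out single libraries gave 1 to 2 members in both L363 comparisons in place of 4, and a fit of the compared libraries gave 0 in L363 CfzR in place of 4 and 0 in ARH-77 BtzR in place of 10; without either ARH-77 BtzR replicate the latter was 5 to 6. Rescaling left the median change over all genes within 0.1 of 0. A fit without the libraries labelled AMO1 CfzR, added after seeing the data, gave the same counts.

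The labels share replicate numbers, but no source states that same-numbered replicates were handled together, and with 2 pairs per comparison their deviations correlated at -0.00554 to 0.245. With the replicate block, called members were 6 in AMO1 BtzR, 8 in RPMI-8226 BtzR, 0 in L363 BtzR, L363 CfzR and ARH-77 BtzR, and 33 in place of 32 differed between lines. Having 2 replicates per group and unknown depth limits the precision of values near 0.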

Other observations

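CHAC1, which degrades glutathione, and SESN2, a stress-inducible sestrin, had the same pattern between replicates as SLC7A11 in RPMI-8226 BtzR, and were picked after their values were seen. In that group CHAC1 was at 0.48 and 21.8 FPKM, SESN2 at 8.50 and 72.3 and SLC7A11 at 4.01 and 21.5, with the higher value in replicate 2 each time. In AMO1 WT, CHAC1 was at 11.4 and 41.9 FPKM, SESN2 at 22.1 and 46.8 and SLC7A11 at 4.33 and 7.17, again higher in replicate 2. In ARH-77 WT the values were 17.3 and 32.9 for CHAC1, 14.0 and 25.8 for SESN2 and 4.86 and 10.5 for SLC7A11. The L363 libraries held 1.53 to 5.84 FPKM of CHAC1 and 6.18 to 13.8 of SESN2. In AMO1 BtzR, replicate 1 was the higher for HMOX1 (38.7 and 8.96 FPKM). The same order held there for CHAC1 (24.9 and 21.8) and SLC7A11 (5.37 and 3.63), with smaller gaps.

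SQSTM1 and ME1, called in RPMI-8226 BtzR, were also picked after their values were seen. SQSTM1, a receptor for selective autophagy that binds KEAP1, was at 78.0 and 70.2 FPKM in RPMI-8226 WT and at 140 and 214 in BtzR (log2-fold change 1.22, SE 0.20, limma adjusted p = 0.000146). In AMO1 it was at 231 and 184 FPKM in WT and at 436 and 278 in BtzR, the highest of any group, but it was not called there. ME1, an NADPH-producing NRF2 target, was at most 0.03 FPKM in the AMO1 and L363 libraries, at 26.0 and 27.7 in RPMI-8226 WT and at 8.71 and 11.9 in RPMI-8226 BtzR (-1.32, SE 0.11, limma adjusted p = 1.2e-07).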
